A study of Arabidopsis thaliana with 6 samples.

Results

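The AP2/ERF transcription factors tny, AT2G44940 and AT5G61590 were followed in roots of Arabidopsis thaliana seedlings under excess boron. Each is represented by 1 probe set on the Affymetrix ATH1 array, so 3 of the 22746 plant probe sets belong to them. They were found by name in the platform's probe annotation, and they had been chosen by their values on these arrays, in the contrast of boric acid with control and on same-numbered arrays. Their own changes are therefore given as a description, without a test. In all, 13355 genes had a probe set of their own.

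Roots of 2 groups were compared, all from seedlings aged 5 days at transfer and sampled at 12 h. In the boric acid group the seedlings had been moved to half-strength Murashige and Skoog medium with 5 mM boric acid, an amount that stunts roots, and in the control group to the same medium without the addition. Each group had 3 arrays labelled as biological replicates, numbered 1 to 3 in the labels. Accession line, genotype and the number of seedlings per array are not given in the sources used here.

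AP2/ERF proteins form a plant family named after the DNA-binding domain that its members share. Many bind the GCC box of ethylene-responsive defence genes or the dehydration-responsive element of cold and drought genes, and some activate their targets while others repress them. TINY, encoded by tny, is a member of the DREB branch that can bind both elements, links stress responses with ethylene and brassinosteroid signalling, and dwarfs plants when overproduced. AT2G44940 has no symbol in the gene table and belongs to the same A-4 branch as tny. AT5G61590, also known as DEWAX (Decrease Wax Biosynthesis), belongs to group IX of the family and represses genes of cuticular wax synthesis in leaves, where its level follows light and darkness.

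The 3 genes followed 3 different patterns. The level of tny was lower on every boric acid array than on any control array, by a mean of 6.12-fold. AT2G44940 and AT5G61590 differed most between arrays of different replicate number within each group, and in opposite directions: on the arrays numbered 1, AT2G44940 was high and AT5G61590 low. Within each same-numbered pair, AT5G61590 was lower in boric acid, while AT2G44940 differed by less than 0.5 log2 units.

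**Figure D1:**
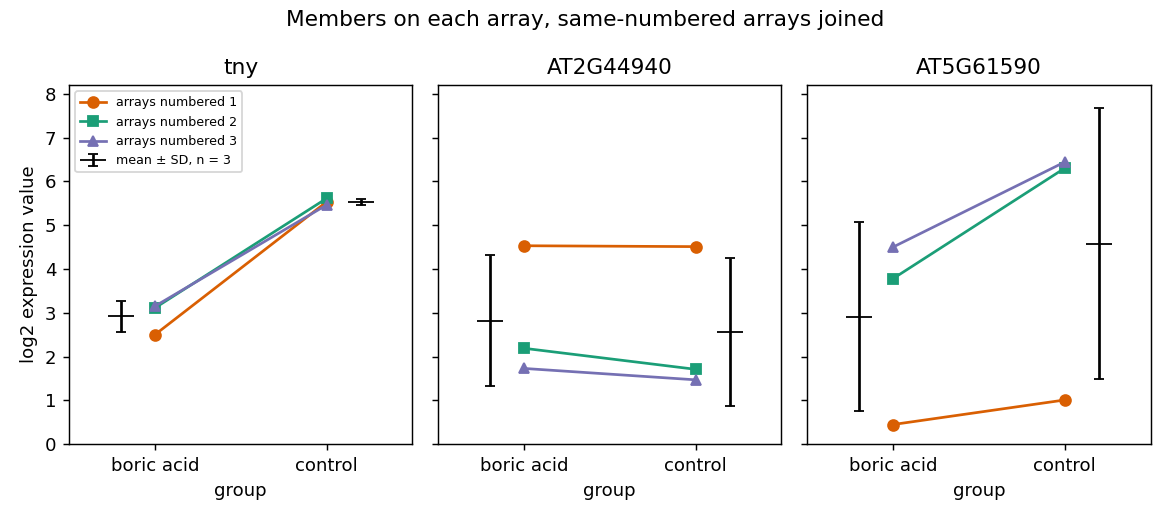
Log2 expression values of tny, AT2G44940 and AT5G61590 in boric acid and control roots, with same-numbered arrays joined by a line and the mean ± SD of each group (n = 3) in black. The groups separate for tny (2.50 to 3.15 in boric acid, 5.46 to 5.61 in control), while for the other genes the arrays numbered 1 stand apart in both groups.

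Values are log2 expression values as deposited, a scale on which a step of 1 is a doubling of signal. The highest value of the TrpnX control probe sets, which match no plant transcript, was 0.217 on any array, so a value close to it is taken as background. Levels of different probe sets are not compared, because probes differ in how strongly they bind. Since whole roots were measured, fewer cells that express a gene and less RNA per cell cannot be told apart.

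For tny, the values were 2.50, 3.11 and 3.15 on boric acid 1, 2 and 3, against 5.53, 5.61 and 5.46 on control 1, 2 and 3. All boric acid arrays lay below all control arrays. The means were 2.92 ± 0.36 in boric acid and 5.53 ± 0.07 in control roots (SD, n = 3 each), a change of -2.61 ± 0.19 (SE of the linear model), which 49 of the 22746 probe sets exceeded in size. Boric acid minus control was -3.03, -2.50 and -2.31 in the pairs numbered 1, 2 and 3. Control roots held tny at nearly the same level on all 3 arrays, with a range of 0.14, while 19291 probe sets had a larger range there. The range in boric acid was 0.65, set by boric acid 1, and 3169 probe sets had a larger range in that group. Without boric acid 1 the change was -2.41 ± 0.11, and over the 6 fits that each left out an array it lay between -2.73 and -2.41.

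For AT5G61590, the values were 0.45, 3.78 and 4.50 on boric acid 1, 2 and 3, against 1.01, 6.30 and 6.44 on control 1, 2 and 3. The lowest array of each group was the one numbered 1, and the groups overlapped. Boric acid minus control was -0.56, -2.51 and -1.94 in the pairs numbered 1, 2 and 3, so each pair had the lower value in boric acid, by 1.47-fold, 5.71-fold and 3.83-fold. In the pair numbered 1, both values were low and the boric acid value lay close to the TrpnX level. The means were 2.91 ± 2.16 in boric acid and 4.58 ± 3.09 in control roots (SD, n = 3 each). The change of -1.67 had an SE of 1.72 with the arrays taken as independent and of 0.36 with the replicate number as a block.

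The spread of AT5G61590 within a group was among the widest on the array. The control arrays spanned 5.43 log2 units, a range that 3 of the 22746 probe sets exceeded, and the boric acid arrays spanned 4.05, which 7 exceeded. In fits without the block that left out 1 array and kept its same-numbered partner, the change therefore depended on single arrays. It was -0.44 without boric acid 1, -0.81 without control 2, -0.74 without control 3, -2.11 without boric acid 2, -2.46 without boric acid 3 and -3.46 without control 1. Without both arrays numbered 1 it was -2.22 ± 0.24 (SE), a comparison of 2 arrays with 2 that was added after the values had been seen.

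For AT2G44940, the values were 4.53, 2.19 and 1.73 on boric acid 1, 2 and 3, against 4.51, 1.71 and 1.47 on control 1, 2 and 3. Here the arrays numbered 1 were the highest of their groups, and the groups overlapped almost fully. Boric acid minus control was 0.02, 0.48 and 0.25 in the pairs numbered 1, 2 and 3, at most 1.40-fold. The means were 2.82 ± 1.50 in boric acid and 2.57 ± 1.69 in control roots (SD, n = 3 each), a change of 0.25 with an SE of 1.03, or of 0.13 with the replicate number as a block. The range was 2.80 in boric acid, exceeded by 38 probe sets, and 3.04 in control roots, exceeded by 51. In fits without the block that each left out an array, the sign of the change turned: it lay between -0.61 without boric acid 1 and 1.22 without control 1. These fits kept the same-numbered partner of the array left out, while the difference within each pair was positive. Without both arrays numbered 1 the change was 0.37 ± 0.20 (SE).

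The arrays numbered 1 were then set against the mean of the arrays numbered 2 and 3 of the same group. This measure was -3.69 in boric acid and -5.36 in control roots for AT5G61590, and 2.57 in boric acid and 2.92 in control roots for AT2G44940. For tny it was -0.63 in boric acid and 0.00 in control roots. In both groups, 32 probe sets (0.141% of all) were lower on the array numbered 1 than on both others by over 2 log2 units, AT5G61590 among them, and 18 (0.0791%) were higher by as much, AT2G44940 among them. This limit was set after the values had been seen.

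Other measures moved with the arrays numbered 1. The 3′ minus 5′ difference of the actin control probe sets, a measure of RNA quality, was 2.96 on boric acid 1 and 2.60 on control 1, against 1.71 and 1.28 on boric acid 2 and 3 and 1.67 and 1.23 on control 2 and 3. GI, a gene of the circadian clock the only gene with a named probe set among 13 listed for the clock, was at 2.42 on boric acid 1 and 3.06 on control 1, against 0.66 and 0.60 on boric acid 2 and 3 and 0.36 and 0.75 on control 2 and 3. Their part in the values of AT2G44940 and AT5G61590 was not tested. Over all probe sets, limma's moderated F-test of the replicate number, with the treatment in the model, called 526 of 22746 at a Benjamini-Hochberg adjusted p under 0.05 (2.31%) and 1.88% of genes with a probe set of their own. It was added after the values had been seen, and the members are not counted in what follows.

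Among the other 44 measured AP2/ERF genes, 4 passed this F-test of the replicate number, which by its construction picks genes whose same-numbered arrays deviate together. AT5G52020, of group III, which also holds tny and AT2G44940, was at 2.73, 0.81 and 1.15 in boric acid and at 3.92, 1.27 and 1.18 in control roots. It was high on the arrays numbered 1 as AT2G44940 was (limma F-test, adjusted p = 0.0284). AT3G60490, of the A-4 branch with tny and AT2G44940, was at 1.76, 3.04 and 3.08 in boric acid and at 1.76, 3.91 and 3.74 in control roots, low on those arrays (adjusted p = 0.0354, limma). AT4G39780 of group I was low on them and AT1G44830 of group II high, with adjusted p = 0.03 and 0.042 in limma. On the arrays numbered 1, AT2G44940 and AT3G60490 of the A-4 branch thus lay on opposite sides of the others.

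**Figure D2:**
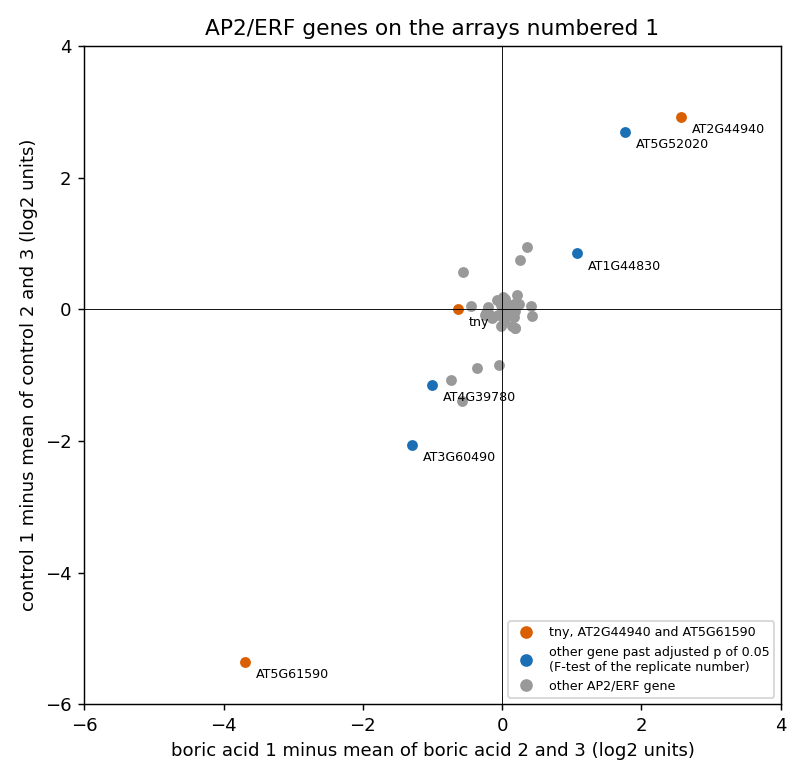
Each point is 1 of 47 measured AP2/ERF genes, with boric acid 1 minus the mean of boric acid 2 and 3 on the horizontal axis and control 1 minus the mean of control 2 and 3 on the vertical axis, both in log2 units. AT5G61590 lies at the lower left (-3.69 and -5.36), AT2G44940 at the upper right (2.57 and 2.92), and tny near 0 on the vertical axis.

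Of 143 genes listed for the AP2/ERF family, 47 had a named probe set, and 44 of these are neither tny, AT2G44940 nor AT5G61590. Others of the list may be among the 9233 probe sets to which the tables assign no single gene, and their response is not known. Between boric acid and control, limma called 740 of 22746 probe sets (3.25%) at a Benjamini-Hochberg adjusted p under 0.05, and 362 of 13355 genes with a probe set of their own (2.71%, with 1.09% called as lower). The fit blocked by replicate number called 2081 probe sets (9.15%) and 1047 such genes (7.84%, with 3.2% called as lower). Among the 44 other AP2/ERF genes, 1 fell and 0 rose in both fits, against these shares of all genes. In limma, 3 of the 44 had an unadjusted p under 0.05 without the block and 9 with it, beside 14.9% and 21.2% of all genes. Their median change was -0.05, beside -0.02 over all genes, and 37 of the 44 changed by less than 0.5 in either direction.

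The gene that fell was AT5G07580, like AT5G61590 a member of group IX, the group that holds factors acting in ethylene and jasmonate defence responses. It was at 1.77, 1.79 and 1.85 on boric acid 1, 2 and 3, against 2.73, 3.44 and 3.72 on control 1, 2 and 3. The boric acid arrays lay close together and below all control arrays. The change was -1.49 ± 0.25 (SE, limma, adjusted p = 0.0338, and 0.0129 with the block). The call was lost in 5 of the 6 fits that left out an array, at adjusted p of 0.0738 to 0.14 in limma, and kept without control 1 (-1.77 ± 0.13, adjusted p = 0.00519). In the 5 fits that lost it, the change lay between -1.51 and -1.27. Those fits called 70 to 349 of all probe sets, against 740 with all 6 arrays. The other measured group IX genes, AT4G18450 and AT5G43410, lay below 0.5 on all arrays, with changes of -0.20 and 0.03.

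Of 13 genes that the list used here placed in the A-4 branch, 11 were measured. The list held 4 other measured genes of group III apart, AT5G52020 among them, with changes from -0.56 to 0.08. None of these 4 passed the threshold with or without the block, and the division into branches was not checked. None of the 9 A-4 genes beside tny and AT2G44940 passed it in either fit. Their median change was -0.08, between -0.51 for AT3G60490 and 0.13 for AT4G16750, with 0 of the 9 at an unadjusted limma p under 0.05 without the block and 1 with it, beside the same 14.9% and 21.2% of all genes. TINY2, the close relative of tny, was at 0.19, 0.24 and 0.07 in boric acid and at 0.39, 0.25 and 0.21 in control roots, near background throughout. AT2G44940, AT3G60490 and tny were the only genes of the 11 above 1 on all arrays, while 7 of the 11 were below 1 on all of them. AT3G60490 was called once both arrays numbered 1 were left out (-0.76 ± 0.13, limma adjusted p = 0.0289), an alternative added after the values had been seen. That fit called 1604 of all 22746 probe sets.

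**Figure D3:**
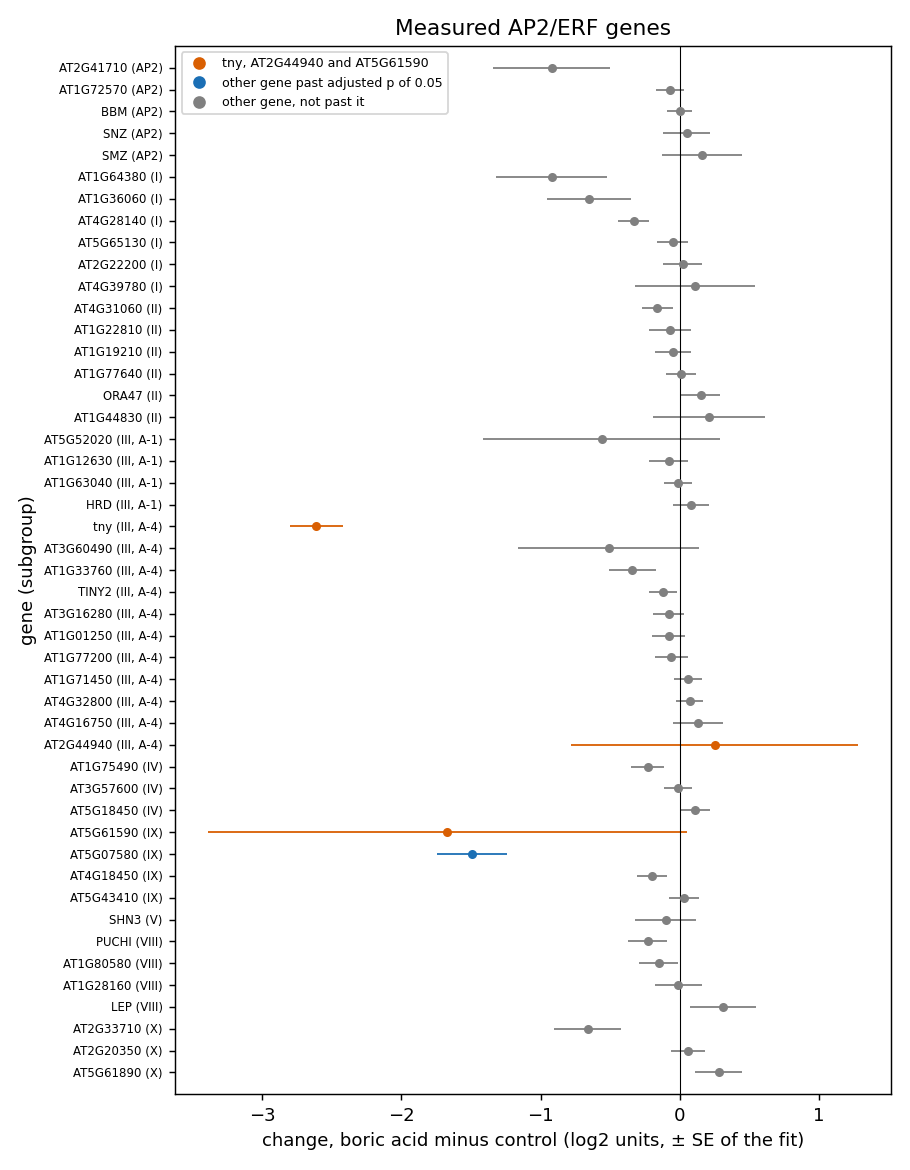
Change in boric acid relative to control (log2 units, ± SE of the fit without the block) for 47 measured AP2/ERF genes, ordered by subgroup of the list used here. The change of tny (-2.61) stands apart with a short error bar, the bars of AT5G61590 (-1.67 ± 1.72) and AT2G44940 (0.25 ± 1.03) are the widest, and AT5G07580 (-1.49 ± 0.25) is past the threshold among the other 44 genes.

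Boric acid and control arrays did not overlap for 3 of the other 44 genes, all lower in boric acid, beside 21.4% of all probe sets. These were AT5G07580, AT2G33710 of group X and AT4G28140 of group I. AT2G33710 was at 2.43, 2.16 and 2.17 in boric acid, against 3.42, 2.87 and 2.46 in control roots, a change of -0.66 ± 0.24 that did not pass (limma, adjusted p = 0.237, and 0.0595 with the block). AT4G28140 stayed at or below 0.43 on all arrays. AT2G41710, of the AP2 group, had a change of -0.92 ± 0.42 (limma, adjusted p = 0.352, and 0.0583 with the block). Without both arrays numbered 1, AT2G41710 was called too (-1.19 ± 0.20, limma adjusted p = 0.0264). That fit, added after the values had been seen, called 3 of the other 44 genes, beside 1604 of all 22746 probe sets. AT4G39780 had a change of 0.11 ± 0.43.

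Genes that act with or downstream of AP2/ERF factors were sparsely measured: 11 of 86 listed for ethylene, brassinosteroid, wax and cutin, dehydration-responsive element targets and GCC-box defence genes had a named probe set, and 0 of the 11 passed in limma with or without the block. At an unadjusted limma p under 0.05 there were 2 of the 11 without the block and 3 with it, beside 14.9% and 21.2% of all genes. No brassinosteroid gene of the 15 listed was measured. ACLA-2, a subunit of the citrate lyase that supplies acetyl-CoA for wax and reported as a target repressed by DEWAX, was at 5.31, 5.61 and 5.38 in boric acid, against 6.14, 6.03 and 5.85 in control roots. The groups did not overlap, and the change of -0.57 ± 0.13 missed the threshold (limma, adjusted p = 0.0773, and 0.0503 with the block). On boric acid 1 and control 1, where AT5G61590 was lowest, ACLA-2 had the lowest value of the boric acid arrays and the highest of the control arrays. A link between the 2 genes was not tested. WSD1, the other wax and cutin gene measured, stayed at or below 0.21 on all arrays.

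Of the 4 measured dehydration-responsive element targets, COR47, a dehydrin of cold and drought, had the largest change, at 9.07, 9.53 and 9.39 in boric acid and 8.87, 8.45 and 8.73 in control roots (0.65 ± 0.17, limma, adjusted p = 0.111, and 0.092 with the block). Without both arrays numbered 1 it was past the threshold (0.87 ± 0.15, limma adjusted p = 0.0301). That fit was added after the values had been seen and called 1604 of all 22746 probe sets. COR15A and COR15B were near background in both groups. Of the 3 GCC-box genes measured, PDF1.2 and PDF1.2b, defensins induced by ethylene and jasmonate, lay below 1 on all arrays, and the chitinase family gene AT2G43590 had a change of -0.86 ± 0.38 (limma, adjusted p = 0.337). In ethylene signalling, the transcription factor EIN3 had a change of -0.17 ± 0.11 and that of RTE1, which acts on the receptor ETR1, was -0.37 ± 0.20 (limma, adjusted p = 0.55 and 0.445).

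As a check of the tissue, PYK10, a root glucosidase, lay between 9.96 and 10.44 on the 6 arrays, and the root hair expansins EXPA7 and EXPA18 between 2.89 and 4.60. The 3 measured photosynthesis genes, markers of green tissue, were also above 1 on all arrays. LHCB4.2 had values of 1.75, 1.18 and 1.21 in boric acid and of 1.71, 2.93 and 2.47 in control roots. The mean of all 3 was lower in boric acid, with changes of -0.22 ± 0.27 for LHCB4.1, -0.99 ± 0.33 for LHCB4.2 and -0.63 ± 0.24 for PSBY. The groups did not overlap for PSBY and PYK10, both lower in boric acid, and for EXPA18, which was higher, beside 21.4% of all probe sets. The closest boric acid and control arrays were at 2.66 and 2.67 for PSBY, 10.08 and 10.12 for PYK10, and 3.87 and 3.72 for EXPA18. None of these 6 genes passed without the block, and EXPA18 rose with it (0.67 ± 0.13, limma, adjusted p = 0.0353). The part of differing tissue makeup in the changes of the AP2/ERF genes was not tested.

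The genes most like each member were found by the mean absolute difference over the 6 arrays after each gene had been set against its own control mean. This describes these arrays, since likeness over 6 arrays includes the treatment and the replicate number alike. Among all 13354 other genes, AT3G18450, of the PLAC8 family, was nearest to tny, at a mean difference of 0.15 log2 units. It was at 0.20, 0.55 and 0.30 in boric acid, against 2.93, 2.83 and 2.74 in control roots. AT1G56680 (0.167), a chitinase family gene, AT4G29690 (0.212), the acyltransferase family gene AT4G15390 (0.222) and the peroxidase gene AT5G64120 (0.258) followed. All 5 were themselves past the threshold, so a search kept to such genes could only give the same 5.

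For the other 2 members, a search kept to genes past the threshold gave differences of 1.73 to 1.77 for AT5G61590 (AT3G51350, AT2G37130, AT3G01690, AT1G78895 and PMEPCRF) and of 1.11 to 1.12 for AT2G44940 (AT1G78260, AT5G26260, AT5G25570, PUB22 and AT1G70470). The threshold favours genes of small spread within a group, so genes that vary as widely as these members could hardly enter that search. Among all 13354 genes, a search added after the values had been seen, AT1G33055 was nearest to AT5G61590, at 0.553. Its values were 0.73, 3.40 and 3.84 in boric acid, against 0.96, 5.05 and 5.22 in control roots. Like AT5G61590 it was lowest on the arrays numbered 1 and, in each pair, lower in boric acid. AT4G39675, the RING finger gene ATL8, AT5G01210 and AT1G74840 followed, at 0.82 to 1.11. Nearest to AT2G44940 was AT3G17130, at 0.216, with 2.81, 0.95 and 0.87 in boric acid and 3.23, 0.30 and 0.45 in control roots. AT5G47060, the glucosyltransferase gene UGT84A1, AT3G56290 and AT3G50300 followed, at 0.221 to 0.349.

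**Figure D4:**
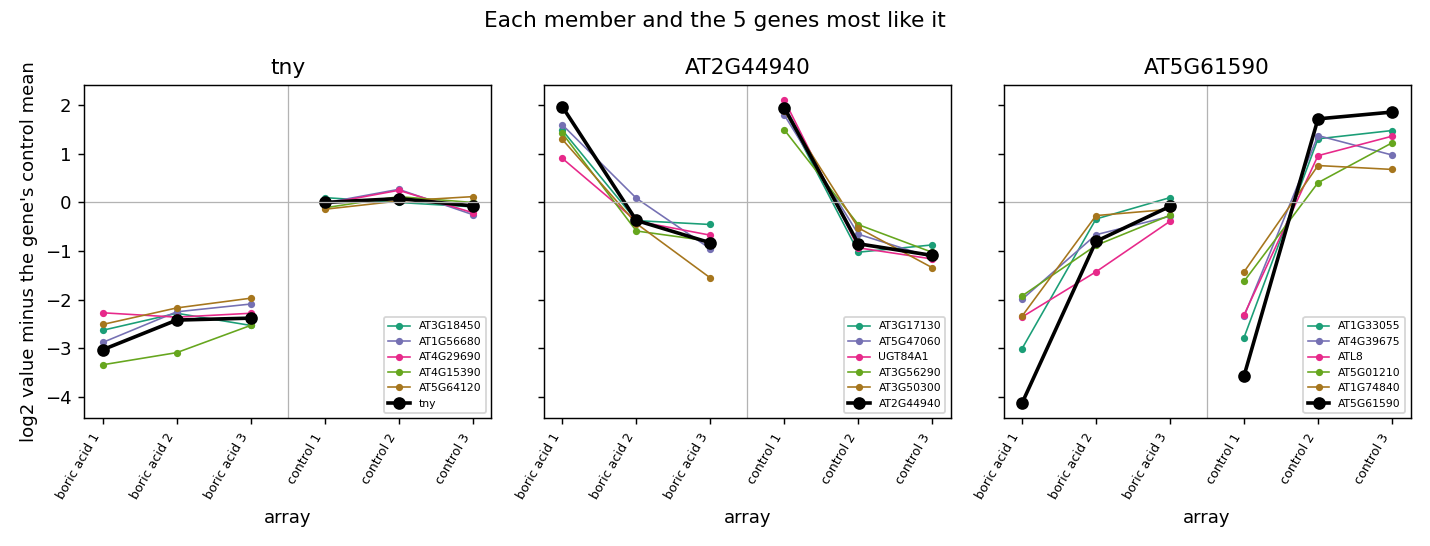
Log2 values of each member (black) and of the 5 genes most like it among all genes with a probe set of their own (colours), each set against its own control mean, on the 3 boric acid and 3 control arrays. The genes near tny separate the groups (mean differences from tny of 0.15 to 0.258), and those near AT2G44940 and AT5G61590 turn on the arrays numbered 1.

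The nearest measured genes along the chromosome were not past the threshold in limma, with or without the block. In the RefSeq gene table of the TAIR10.1 assembly, tny lies between AT5G25800 and AT5G25820, with changes of 0.11 ± 0.20 and 0.12 ± 0.20 (limma, adjusted p = 0.859 and 0.847). AT5G61590 lies next to ERF104, another AP2/ERF gene, which had no named probe set. The nearest measured genes on its 2 sides, AT5G61570 and AT5G61605, had changes of 0.26 ± 0.17 and -0.08 ± 0.10. Those of AT2G44940 were AT2G44930, near background in both groups, and AT2G44970, at 4.68, 4.27 and 4.39 in boric acid and 3.97, 4.18 and 3.98 in control roots (0.40 ± 0.14, limma, adjusted p = 0.213).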

How the data were processed

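Values are log2 expression values per probe set, made by the authors with RMA, per the submitters' processing notes, which give no version or parameters. The labelled RNA was primed at the 3′ end, per the labels' protocols. The log base was checked on the spiked-in controls cre and bioB, which differed by 5.43 to 6.02. The baseline near 0 is not explained in the sources used here. Array medians lay between 1.45 and 1.49.

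Of 22810 probe sets, 64 controls were set aside. Of the rest, 13513 had a single gene in the platform's annotation, 13436 of them matched in RefSeq by gene ID, and they stand for 13355 genes, each by its probe set of highest mean. Family and pathway lists were written by locus from general knowledge, and the 143 AP2/ERF loci all matched the RefSeq table. The members and lists were chosen with earlier results of these data known. Sequences were not used here.

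Boric acid was compared with control in limma 3.58.1 under R 4.3.3 (lmFit, eBayes, two-sided, Benjamini-Hochberg over 22746 probe sets, threshold 0.05), checked on simulated data. The simulated arrays for this comparison varied independently, so the check does not cover deviations shared by same-numbered arrays. Arrays of a group correlated at 0.966 to 0.992, of different groups at 0.958 to 0.979. The replicate numbers in the labels were taken to pair the arrays, because deviations from the group means correlated at 0.608, 0.231 and 0.618 in the same-numbered pairs. Differently numbered arrays gave -0.619 to 0.284, so the pair numbered 2 does not stand out. Deviations within a group offset each other by construction, so these correlations are not independent of one another. What the replicate numbers mark is not given in the labels. The fit with this block is the alternative.

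Genes named are the members, other AP2/ERF genes past the threshold in either fit, the 6 of highest control mean (members included, a rule that only chose names and compares no levels), list genes past the threshold or else the largest change, the nearest measured neighbours and the 5 most alike. Other genes were named after their values were seen.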

Additional observations from a re-analysis of the deposited data

How the results depend on the processing

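Precision is limited by 3 arrays a group. The count of probe sets past the threshold was 740, became 2081 with the replicate number as a block and 1604 without both arrays numbered 1, and ranged from 70 (without boric acid 2) to 1129 (without control 1) over the 6 fits that each left out an array. Leaving out boric acid 1 gave 349, boric acid 3 gave 201, control 2 gave 143 and control 3 gave 277. The count among the 44 other AP2/ERF genes was 1 with the replicate block, a filter on dim probe sets, a repeated quantile normalization, median centring and the trend and robust options. The filter left 35 of the 44 AP2/ERF genes and 9 of the 11 pathway genes to test. The AP2/ERF count ranged from 0 to 2 over the 6 fits that left out an array and was 3 without both arrays numbered 1. The gene sets named for pathways had 0 past the threshold in all of these but the last, where there was 1. The change of tny ranged from -2.73 to -2.41 over the fits that left out an array, that of AT5G61590 from -3.46 to -0.44 and that of AT2G44940 from -0.61 to 1.22. These fits had no block and kept the same-numbered partner of the array left out. Under the other alternatives, tny lay between -2.64 and -2.41. AT5G07580 lay between -1.77 and -1.27 and kept its sign. With every probe set counted the AP2/ERF count could not change, since each gene has 1. The family definition by descriptions was not run, because the tables used here hold none. The search for motifs was not run, because no sequences were used here. The replicate block changed no call among the 44 other AP2/ERF and the pathway genes.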
